A study of Drosophila melanogaster with 62 samples.

Results

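Idgf1, Idgf2 and Idgf3 lie side by side on Drosophila melanogaster chromosome arm 2L, next to the gene dac, and the contacts of this cluster with 2 places at the dac locus were read from 4C-seq counts in 1-kb bins (genome build dm6). The cluster was taken as the 11 bins from 2L:16445001-16456000, which are 11 of the 23514 bins of 2L and of the 137552 bins of the whole genome in the deposited tables. The bins follow from the annotated ends of the genes and not from their counts, and the cluster was picked with earlier results of these data known. In 4C-seq, chromatin is cross-linked, cut and ligated, and the fragments joined to a chosen viewpoint are sequenced, so that a bin's count rises with how often it was ligated to the viewpoint. The first viewpoint, PRE2, is a Polycomb response element in the bin 2L:16487001-16488000, 32 to 42 kb from the cluster, and the second, named gypsy2 in the tables, is in the bin 2L:16465001-16466000, 10 to 20 kb from the cluster. Both lie on the same side of the cluster, so the PRE2 viewpoint sees the cluster beyond dac and the gypsy2 viewpoint sees it with no annotated dac sequence between them.

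The 24 libraries form 8 groups of 3. Wild type (WT) and flies with the insertion labelled gypsy2 were each sampled as embryos, larval imaginal leg discs and pupal imaginal leg discs, and the insertion labelled gypsy1 was sampled as embryos. The remaining 3 libraries are embryo replicates 4 to 6, whose titles say WT but whose genotype field names an insertion. They were kept apart and used only as an alternative embryo control. All flies were grown at 20°C, all insertion libraries share the genotype entry "insertion gypsy", and the labels give neither strain nor sex nor exact age. The study's design text speaks of a gypsy insertion and/or an enhancer deletion, and the column names call the gypsy2 line gypsyenh, and the labels do not say which of these each line carries. Nothing in the labels says whether replicates came from separate crosses, so every p-value below measures only the spread between these libraries. Bulk 4C-seq cannot tell a contact made in more cells from one made more often in the same cells.

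The Idgf genes encode imaginal disc growth factors, secreted proteins of the chitinase family that have lost the catalytic activity and that promote the growth of imaginal disc cells in culture. The neighbouring gene dac encodes Dachshund, a transcription factor that patterns the leg. Polycomb response elements are stretches of DNA that recruit Polycomb proteins and can pair in loops, and gypsy is a retrotransposon whose insulator, bound by Su(Hw), can block an enhancer from a promoter when it lies between them.

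All 3 genes are read from the plus strand. Idgf1 (FBgn0020416) spans 2L:16445278-16446793 and was given 2 bins. Idgf2 (FBgn0020415) spans 2L:16447330-16450508 and was given 4 bins. Idgf3 (FBgn0020414) spans 2L:16450907-16455194 and was given 5 bins. Each bin went to the gene that covers most of it, and the bin 2L:16450001-16451000 holds the end of Idgf2 and the promoter of Idgf3 and counts to Idgf2. The gene CG5888 (FBgn0028523, 2L:16400175-16448469), read from the other strand, runs over Idgf1 and the start of Idgf2. The 536 bases between Idgf1 and Idgf2 are intron of CG5888, whereas the 398 bases between Idgf2 and Idgf3 lie between genes. The gene dac itself spans 2L:16466512-16485998 on the minus strand.

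The 250 bases before each annotated gene start are shown because the promoters of Idgf2 and Idgf3 lie in bins that single-bin tests called below, and that of Idgf3 in the bin that most often had the highest share. They were read from the dm6 genome (Release 6, plus strand, 5′ to 3′). Capitals mark GATC, the recognition site of DpnII-type enzymes that are common in 4C-seq, and GAGAG or its reverse CTCTC, the word bound by GAF.
Idgf1 promoter (2L:16445028-16445277): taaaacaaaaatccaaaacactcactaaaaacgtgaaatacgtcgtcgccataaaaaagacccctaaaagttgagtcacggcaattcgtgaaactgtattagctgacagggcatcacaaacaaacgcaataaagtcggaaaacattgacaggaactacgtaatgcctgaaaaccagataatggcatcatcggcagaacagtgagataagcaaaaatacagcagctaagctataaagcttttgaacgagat
Idgf2 promoter (2L:16447080-16447329): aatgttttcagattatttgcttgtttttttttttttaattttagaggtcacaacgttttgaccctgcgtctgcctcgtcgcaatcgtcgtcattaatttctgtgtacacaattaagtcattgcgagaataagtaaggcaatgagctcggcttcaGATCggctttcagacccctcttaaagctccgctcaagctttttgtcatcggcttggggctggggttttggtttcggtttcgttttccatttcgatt
Idgf3 promoter (2L:16450657-16450906): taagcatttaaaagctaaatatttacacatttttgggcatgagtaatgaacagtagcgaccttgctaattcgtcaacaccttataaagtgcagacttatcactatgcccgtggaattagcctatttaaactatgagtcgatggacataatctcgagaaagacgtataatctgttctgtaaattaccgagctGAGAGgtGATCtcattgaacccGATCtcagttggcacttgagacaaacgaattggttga
The Idgf1 promoter held neither word, the Idgf2 promoter held 1 GATC, and the Idgf3 promoter held 2 GATC and 1 GAGAG that touch no common base. Of the 2657 promoters of protein-coding genes on 2L, taken the same way on both strands, 35.8% held GATC and 25.4% held GAGAG or CTCTC. The restriction enzyme of these libraries is not stated in the labels, and a word match is a description of the sequence only.

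Each value below is a share, the percent of a library's 2L counts that fell in the named bins, after the viewpoint bin and 5 kb on either side of it were left out. Libraries held 800269 to 25904672 counts, and the cluster itself held 9769 to 1154833 counts, so the counting error of a cluster share was at most 1.01% of its value and that of a 1-kb bin at most 4.99%. The spread between replicates was larger than that everywhere (chi-square per degree of freedom of 8.41 to 424 over 48 pairs of replicates), so no pair of libraries looked like 1 library deposited again. Depth moved with genotype in embryos. Embryo WT libraries held 800269 to 1461167 counts against 19952708 to 25904672 for embryo gypsy2, and the viewpoint bin took 8.92% to 20.8% of their counts against 40.8% to 59.3%. Embryo replicates 4 to 6 resembled embryo gypsy2 in both respects, with 14352639 to 24823064 counts and 38.5% to 69.3% in the viewpoint bin, so the main embryo results are given against both controls. In larval discs the PRE2 bin took 11.6% to 12.5% in WT and 16.7% to 33.0% in gypsy2, and in embryos the gypsy2 viewpoint bin took 2.64% to 8.10% in gypsy1 against 8.92% to 12.6% in WT. The part of depth and of the viewpoint bin in the results was not tested. As a check of the labels, the bin 2L:16458001-16459000, which lies 2 kb past the cluster, was nearly empty in all 18 gypsy2 columns, with 0 to 504 counts and 0% to 4.36% of the mean cluster bin. The same bin reached 25.4% to 88.6% of the mean cluster bin in the 18 WT columns, 43.8% to 69.8% in the 6 columns of embryo replicates 4 to 6 and 42.6% to 103% in the 6 gypsy1 columns. Pooled over stages and viewpoints, embryo replicates 4 to 6 lay in that bin within the ranges of WT and of gypsy1 and apart from gypsy2. Within embryos they did not match WT replicates 1 to 3. From PRE2 they held 43.8% to 50.3% of the mean cluster bin, against 65.0% to 69.4% in WT and 76.2% to 103% in gypsy1. From the gypsy2 viewpoint they held 66.8% to 69.8%, against 49.0% to 59.3% in WT and 42.6% to 69.9% in gypsy1.

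In WT, contacts were spread unevenly along the cluster. From PRE2 in embryos the bin 2L:16450001-16451000, with the end of Idgf2 and the Idgf3 promoter, held 0.609% ± 0.0442 (SD, n = 3) and was the highest of the 11. The bin 2L:16448001-16449000 inside Idgf2 held 0.144% ± 0.00935 (SD, n = 3) and was the lowest. The same bins, seen from the gypsy2 viewpoint, were again the highest and the lowest in embryos, at 1.18% ± 0.0433 (SD, n = 3) and 0.258% ± 0.0364 (SD, n = 3). Over the 16 combinations of group and viewpoint, the bin 2L:16450001-16451000 was the highest in 7 and among the top 3 in 15. The bin 2L:16454001-16455000 in Idgf3 was the highest in 6 and among the top 3 in 15, and 2L:16446001-16447000 at the end of Idgf1 was the highest in the remaining 3. The bin 2L:16448001-16449000 was the lowest in 10 combinations and among the lowest 3 in 15. The highest bin exceeded the lowest by 2.34 to 5.91 times. The order of the bins was much the same from either viewpoint, with Pearson's r of 0.94, 0.97 and 0.89 over the 11 bins in WT embryos, larval discs and pupal discs. Those 11 points share the libraries, the cut sites and the mappability of each bin, and r is given as a description.

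**Figure D1:**
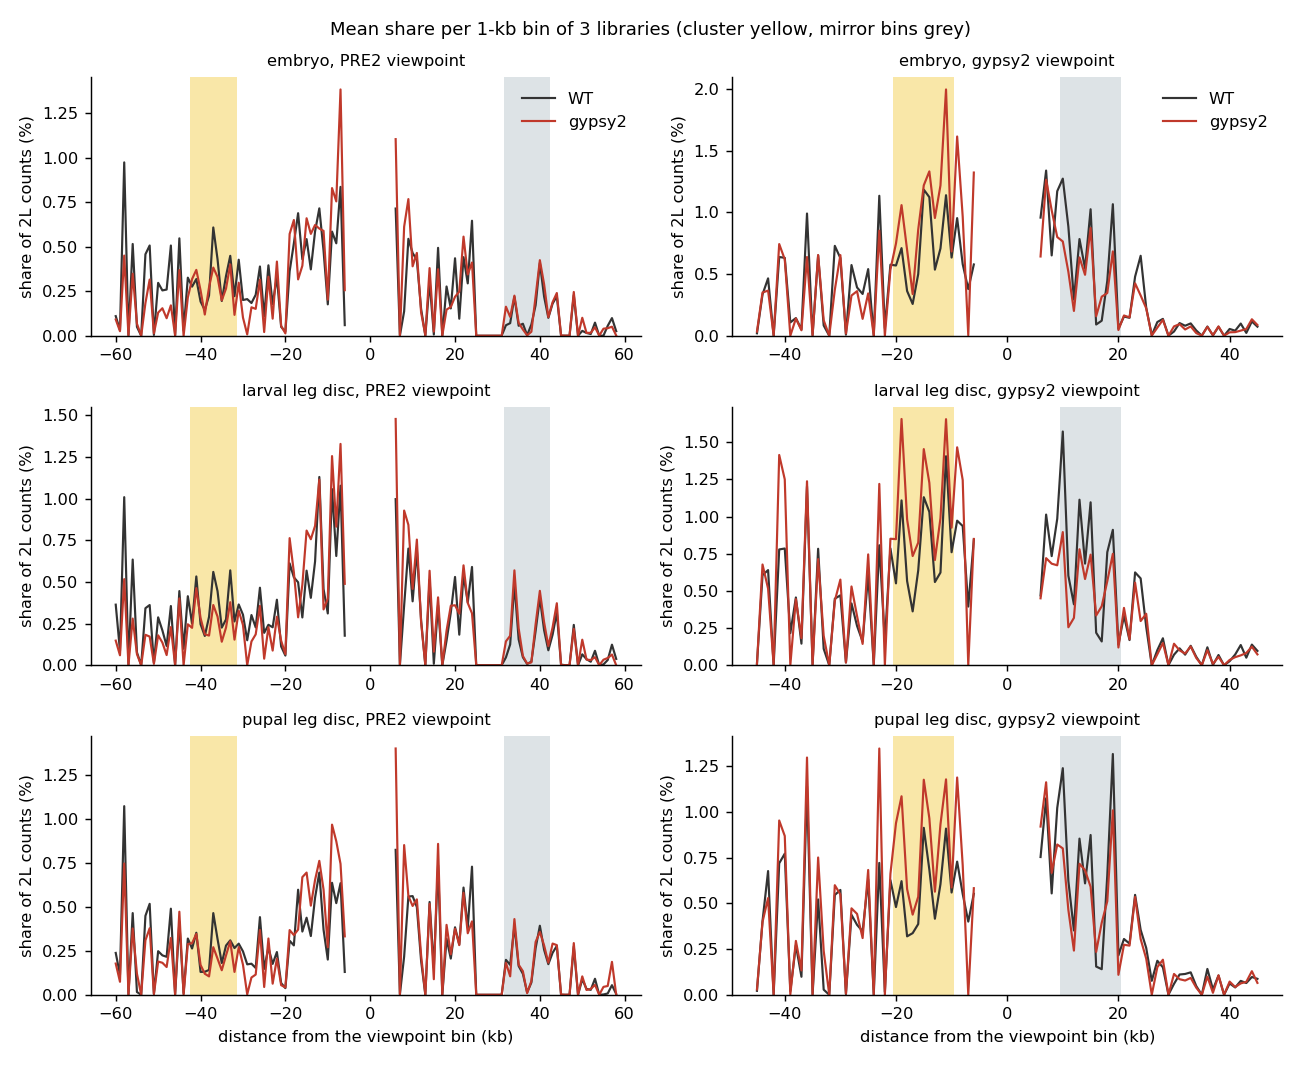
Mean share of 2L counts per 1-kb bin (y axis, %, mean of 3 libraries) against the distance from the viewpoint bin (x axis, kb) for WT (black) and gypsy2 (red), with rows for stages and columns for viewpoints. The cluster is shaded yellow and the bins at equal distance on the other side grey. From PRE2 the red line lies mostly under the black one at the end of the cluster nearer the viewpoint, whereas from the gypsy2 viewpoint it lies above it.

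Possible cut sites were counted in the same bins. All 11 cluster bins held GATC, 3 to 11 times each and 59 times in all, whereas CATG, another common cutter's site, was in 10 of the 11 and occurred 28 times. Across all bins within 500 kb of PRE2, the 806 bins with GATC had a median of 290.5 counts summed over the 3 embryo WT libraries against 4 for the 184 bins without it. The corresponding medians at the gypsy2 viewpoint were 359 and 6. The medians with and without CATG differed less, at 215 and 21 from PRE2. The number of GATC sites did not follow the order of the shares inside the cluster. The bin with the most sites, 2L:16449001-16450000 with 11, was among the lowest 3 bins in 8 of 16 combinations, and the high bin 2L:16454001-16455000 had 3. The only cluster bin without CATG was 2L:16448001-16449000, which was the lowest in 10 of the 16 combinations. The part of cut sites in the order of the bins was not tested. The genes are paralogs, and their coding sequences were 56.7% to 60.8% identical with no identical run longer than 21 bases. The longest stretch of the cluster found again elsewhere in the genome was 24 bases, and no stretch of 36 bases or more was.

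Bins equally far from the viewpoint in the other direction served as the background for distance. From PRE2 these are 2L:16519001-16530000, beyond dac and PRE2, and from the gypsy2 viewpoint 2L:16475001-16486000, inside dac. From PRE2 the cluster exceeded this mirror in WT at every stage. In WT embryos the log2 ratio of cluster to mirror was 1.29, 1.22 and 1.22, in larval leg discs 1.05, 0.98 and 1.21, and in pupal leg discs 0.35, 0.52 and 0.19. All 9 WT libraries were above 0, and the pupal values lay below those of the other stages with no overlap. How common such a gap between stages is elsewhere on 2L was not counted. The mean over the 9 was 0.89 (1.86-fold), with p = 0.0039 in an exact two-sided sign-flip test, the smallest p that 9 libraries allow. Bin by bin, 9, 8 and 8 of the 11 cluster bins exceeded their own mirror bin in embryos, larval discs and pupal discs. The mirror held 1 bin without GATC among its 11 and 31 GATC sites in all, against 59 in the cluster. The part of cut sites in the excess was not tested. With bins capped at the 99th percentile the direction was unchanged.

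The cluster and the mirror inside dac held similar shares in WT when seen from the gypsy2 viewpoint. The log2 ratios were 0.29, 0.21 and 0.20 in embryos, -0.01, 0.44 and 0.13 in larval discs and -0.23, -0.09 and -0.21 in pupal discs. They crossed 0, and their mean of 0.08 over 9 libraries had p = 0.33 (exact two-sided sign-flip test). The mirror inside dac held 30 GATC sites against 59 in the cluster, and their part was not tested. The comparison depended on which bins served as background. With the mirror 3 kb nearer the viewpoint the mean was -0.11, and with it 3 kb farther it was 0.40, so the sign followed the choice of background.

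**Figure D2:**
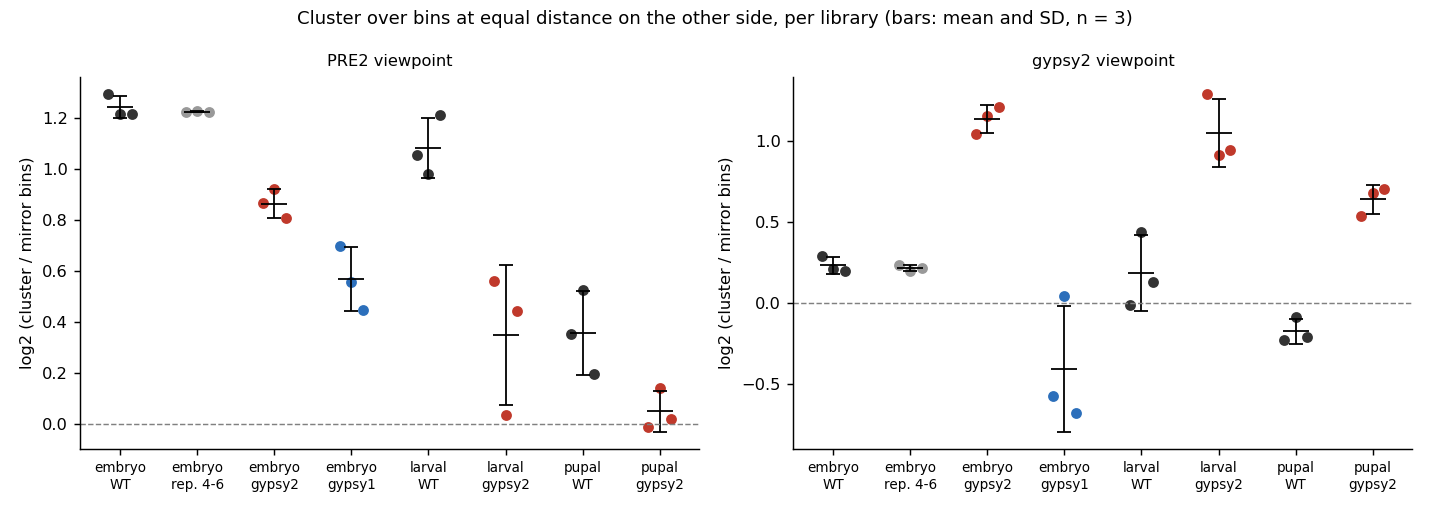
Log2 ratio of the cluster's counts to those of its 11 mirror bins (y axis) for every library, by stage and genotype (x axis). Points are libraries, bars the mean and SD of 3, and the dashed line marks equal counts. From PRE2 every insertion group sits below its WT group, and from the gypsy2 viewpoint gypsy2 sits above WT, at 1.04 to 1.21 in embryos, while gypsy1 sits below it.

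The question put to the insertion lines is whether contacts across the locus shift when gypsy is present. From PRE2, gypsy2 libraries had a lower cluster share than WT at all 3 stages. In embryos the share was 3.30%, 3.37% and 3.53% in WT and 3.0%, 3.10% and 2.99% in gypsy2. In larval leg discs it was 3.62%, 3.41% and 4.47% in WT and 3.34%, 2.52% and 2.80% in gypsy2. In pupal leg discs it was 2.77%, 3.03% and 2.70% in WT and 2.32%, 2.27% and 2.33% in gypsy2. At each stage every gypsy2 library was below every WT library, and the narrowest gap was in larval discs, where the highest gypsy2 library at 3.34% lay next to the lowest WT library at 3.41%. Among all 88 windows of 11 kb within 500 kb of PRE2, the share with every gypsy2 library below every WT library was 23.9% in embryos, 17% in larval discs and 22.7% in pupal discs, so this separation was not rare. The fold was 0.892 in embryos, 0.753 in larval discs and 0.815 in pupal discs. Within a stage 3 libraries against 3 cannot give a p below 0.1 in an exact two-sided permutation test, and each stage gave 0.1. Permuting within all 3 stages gave a mean log2 difference of -0.29 with p = 0.00025, the smallest this exact test allows.

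Against embryo replicates 4 to 6, which held 3.80%, 3.74% and 3.66%, the embryo gypsy2 libraries were lower again, by 0.30 on the log2 scale, and all 3 lay below all 3, as they did in 18.2% of windows. With only the larval and pupal libraries the mean log2 difference was -0.35 (p = 0.005, exact permutation within stages). The median of the 11 bins, in place of their sum, gave +0.04 in embryos, so the direction in embryos held for the sum of the bins and not for their median.

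The cluster went the other way when seen from the gypsy2 viewpoint. In embryos the share was 7.38%, 7.78% and 8.01% in WT and 10.4%, 11.4% and 11.6% in gypsy2. In larval leg discs it was 7.44%, 9.45% and 9.32% in WT and 14.2%, 11.1% and 10.7% in gypsy2. In pupal leg discs it was 6.14%, 6.72% and 5.85% in WT and 8.77%, 8.73% and 9.46% in gypsy2. No gypsy2 library overlapped with the WT libraries of its stage, where 18.2%, 10.2% and 13.6% of all windows separated in this direction in embryos, larval discs and pupal discs. The folds were 1.44, 1.37 and 1.44, each with p = 0.1 in the exact permutation test within its stage. Taken over all 3 stages, the log2 difference averaged +0.50 (p = 0.00025, exact permutation within stages, the smallest possible). Larval gypsy2 replicate 1 stood above the other larval libraries, and without it the larval log2 difference was 0.33.

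Against embryo replicates 4 to 6 the rise in embryos was smaller, +0.30 on the log2 scale, with 9.24%, 9.10% and 8.72% in the controls and no overlap, as in 34.1% of windows. The denominator changed the direction in embryos. With all 2L counts as the denominator, so that the viewpoint bin is kept, the embryo difference against WT replicates 1 to 3 turned to -0.58, and with all counts of the library to -0.41, while against embryo replicates 4 to 6 the same scales gave +0.40 and +0.39. The share of the viewpoint bin differs several fold between embryo WT replicates 1 to 3 and gypsy2, whereas embryo replicates 4 to 6 lie near gypsy2. With only larval and pupal libraries the mean log2 difference was +0.49 (p = 0.005, exact permutation within stages).

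**Figure D3:**
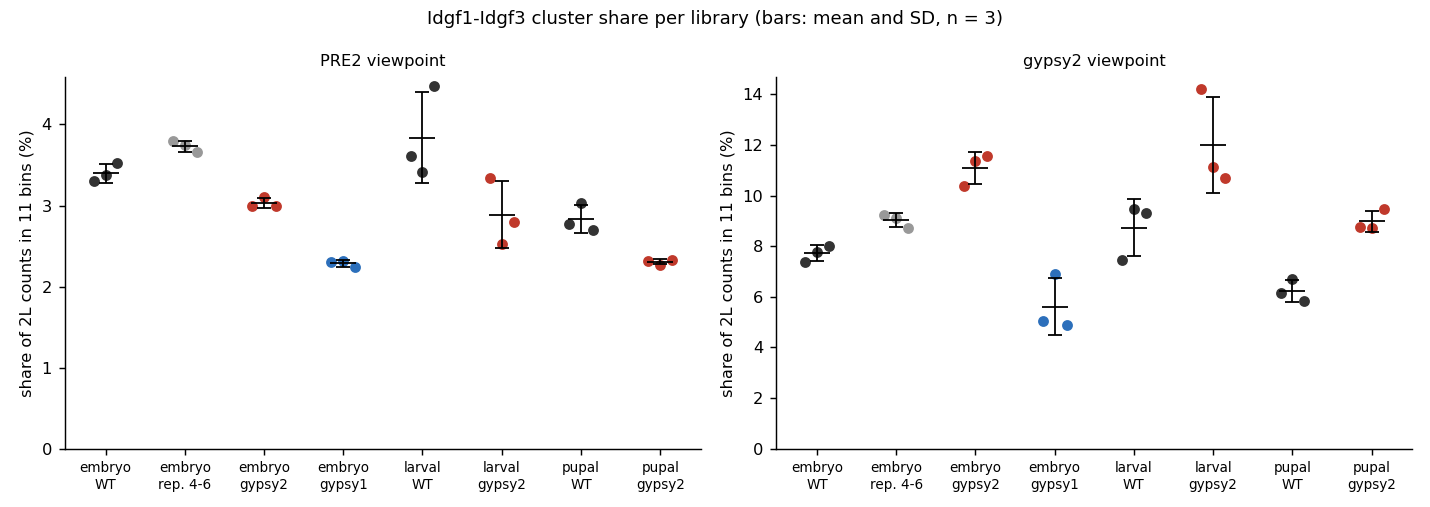
Share of 2L counts in the 11 cluster bins (y axis, %) for every library, by stage and genotype (x axis), from PRE2 on the left and the gypsy2 viewpoint on the right. Points are libraries and bars the mean and SD of 3. Pupal gypsy2 libraries sit at 2.27% to 2.33% under WT at 2.70% to 3.03% from PRE2, and at 8.73% to 9.46% over WT at 5.85% to 6.72% from the gypsy2 viewpoint.

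The ratio of cluster to mirror takes both regions from the same library, so depth and the denominator cancel. From PRE2 it fell from 1.29, 1.22 and 1.22 in WT embryos to 0.86, 0.92 and 0.81 in gypsy2. In larval discs gypsy2 gave 0.56, 0.04 and 0.44, and in pupal discs -0.01, 0.14 and 0.02, each set below its WT set with no overlap. The mean change over the 3 stages was -0.47 (p = 0.00025, exact permutation within stages). The mirror itself had a higher mean in gypsy2 in embryos, 1.67% against 1.44%, and in larval discs, 2.26% against 1.80%, with no overlap at either stage. Seen from the gypsy2 viewpoint the ratio rose to 1.04, 1.16 and 1.21 in gypsy2 embryos, 1.29, 0.92 and 0.95 in larval discs and 0.54, 0.68 and 0.71 in pupal discs. The mean change was +0.86 (1.82-fold, p = 0.00025, exact permutation within stages), with all 9 gypsy2 libraries above every WT library of their stage. Here the mirror inside dac fell while the cluster rose, from 6.58% to 5.04% in embryos, 7.67% to 5.74% in larval discs and 7.04% to 5.76% in pupal discs (means of 3). Against embryo replicates 4 to 6 the embryo changes were -0.36 and +0.92.

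A count model over all windows gave the same directions with fewer calls. Counts in 88 windows of 11 kb within 500 kb of each viewpoint, 1 of them the cluster, were fitted with edgeR's quasi-likelihood test and called at a Benjamini-Hochberg adjusted p under 0.05. From PRE2 the cluster window had a log2 fold change of -0.18 (SE 0.105, adjusted p = 0.18) in embryos, where 38.6% of windows were called in either direction. It had -0.49 (SE 0.160, adjusted p = 0.0602) in larval discs, where 15.9% were called, and -0.23 (SE 0.0674, adjusted p = 0.00773) in pupal discs, where 27.3% were called. Only the pupal fall passed, and it did not without pupal WT replicate 2 (log2 fold change -0.15). The larval fall passed without larval WT replicate 2 or larval gypsy2 replicate 1 (-0.60 and -0.56), and the embryo fall without embryo WT replicate 2 (-0.23) or against embryo replicates 4 to 6 (-0.35), where 29.5% of windows were called. With library totals in place of TMM scaling factors the falls were larger in embryos and larval discs, -1.19 and -0.69.

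The cluster window rose at every stage in edgeR from the gypsy2 viewpoint. The log2 fold change was +0.52 (SE 0.204, adjusted p = 0.0292) in embryos, +0.55 (SE 0.162, adjusted p = 0.0478) in larval discs and +0.66 (SE 0.0579, adjusted p = 1.16e-06) in pupal discs. In the same fits 20.5%, 4.55% and 13.6% of windows were called higher in embryos, larval discs and pupal discs. The embryo and larval calls depended on single libraries. With library totals in place of TMM scaling factors the values were -0.40 in embryos and 0.32 in larval discs. The embryo call was lost without WT replicate 2 or gypsy2 replicate 5 or 6 (log2 fold changes of 0.46, 0.49 and 0.48), and against embryo replicates 4 to 6 (0.23), where 43.2% of windows were called. The larval call was lost without WT replicate 1 or 3 or gypsy2 replicate 1 or 2 (0.43, 0.61, 0.35 and 0.62). The pupal call held without any 1 library, with 0.61 to 0.70. Whether the change in gypsy2 differed between stages was tested as an interaction, and the cluster window was called for none of the 3 pairs of stages at either viewpoint, with edgeR adjusted p of 0.28 to 0.89. In those tests 7.95%, 5.68% and 19.3% of windows were called at PRE2 and 21.6%, 3.41% and 19.3% at the gypsy2 viewpoint, for larval discs against embryos, pupal against larval discs and pupal discs against embryos. With embryo replicates 4 to 6 as control, the rise at the gypsy2 viewpoint was larger in pupal discs than in embryos by 0.38 on the log2 scale and passed.

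The cluster did not move alone from PRE2. The 5 windows beyond it run from 2L:16390001 to 16445000, over CG5888 except for most of the farthest window. All had negative log2 fold changes in gypsy2, of -0.45 to -0.96 in embryos, -0.78 to -0.96 in larval discs and -0.22 to -0.47 in pupal discs. The cluster's own change was smaller than that of all 5 in embryos and larval discs. The 5 windows had -0.44 to -0.70 in embryos against embryo replicates 4 to 6. Of the 88 windows, 31, 12 and 20 had a lower fold change than the cluster in embryos, larval discs and pupal discs. From the gypsy2 viewpoint the cluster had a higher fold change than those windows at every stage, and only 9, 1 and 3 of the 88 windows had a larger one. The nearest of those windows fell in embryos, from a mean of 0.453% per kb in WT to 0.327% in gypsy2, with 0.383% in embryo replicates 4 to 6. It rose from 0.377% to 0.441% in larval discs and from 0.390% to 0.461% in pupal discs. The cluster's share relative to the 11 bins just beyond it, 2L:16434001-16445000, rose in gypsy2 by 0.37 on the log2 scale from PRE2 (p = 0.00525) and by 0.50 from the gypsy2 viewpoint (p = 0.001, both exact permutation within stages). By stage it was 0.79, 0.29 and 0.03 in embryos, larval discs and pupal discs from PRE2 and 0.99, 0.23 and 0.29 at the gypsy2 viewpoint. The embryo values depended on the control, as against embryo replicates 4 to 6 they were 0.097 and 0.53, and the values over 3 stages were then 0.14 and 0.35 (p = 0.03075 and 0.001, exact permutation within stages). Without embryos the rise was 0.16 from PRE2, which no longer passed, and 0.26 from the gypsy2 viewpoint. The bins next to the cluster on the viewpoint's side, 11 from PRE2 and 4 from the gypsy2 viewpoint, include the nearly empty bin named above. That bin is nearly empty only in gypsy2, which by itself lowers these flanks. A rise against them therefore cannot be told apart from the loss of that bin. Relative to these bins the cluster's share rose by 0.20 and 0.18 over the 3 stages (p = 0.00425 and 0.02225, exact permutation within stages). The stages did not all go the same way there, with 0.30, 0.13 and 0.18 from PRE2 but -0.13, 0.29 and 0.38 from the gypsy2 viewpoint in embryos, larval discs and pupal discs. The embryo values were 0.10 and 0.043 against embryo replicates 4 to 6.

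Gene by gene, the difference at Idgf1 seen from PRE2 changed sign between stages. Differences between the genes were not tested. Its share per kb was 0.279%, 0.307% and 0.305% in WT embryos and 0.354%, 0.364% and 0.316% in gypsy2 embryos, so every gypsy2 library was above every WT library of replicates 1 to 3. Embryo replicates 4 to 6, at 0.318%, 0.342% and 0.311%, overlapped with gypsy2. In larval discs WT held 0.346%, 0.391% and 0.438% against 0.399%, 0.298% and 0.333%, and in pupal discs 0.320%, 0.305% and 0.298% against 0.303%, 0.322% and 0.333%, and the groups overlapped at both stages. Over the 3 stages the log2 difference of Idgf1 was +0.02 (p = 0.74, exact permutation within stages), and its sign turned under other denominators.

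Idgf2, by the sum of its bins, and Idgf3 fell from PRE2. The share per kb of Idgf2 was 0.270%, 0.298% and 0.311% in WT embryos against 0.252%, 0.252% and 0.269% in gypsy2, and in pupal discs 0.213%, 0.235% and 0.202% against 0.169%, 0.156% and 0.173%. The groups did not overlap at those stages, but did in larval discs, with 0.279%, 0.300% and 0.376% in WT against 0.303%, 0.221% and 0.232%. Idgf3, the gene nearest to dac, fell as well. It held 0.332%, 0.313% and 0.335% in WT embryos against 0.257%, 0.273% and 0.257% in gypsy2, 0.362%, 0.287% and 0.419% in WT larval discs against 0.265%, 0.209% and 0.241%, and 0.257%, 0.296% and 0.258% in WT pupal discs against 0.207%, 0.201% and 0.194%. Every gypsy2 library was below every WT library at each stage. Over the 3 stages the log2 difference was -0.30 for Idgf2 (p = 0.00175) and -0.44 for Idgf3 (p = 0.00025, both exact permutation within stages, unadjusted, 2 of 6 such tests over 3 genes and 2 viewpoints). The median of the bins of Idgf2 gave +0.07 in place of -0.30. In embryos and pupal discs the fall of Idgf2 lay mainly in the bin 2L:16450001-16451000, which also holds the Idgf3 promoter. This bin went from 0.609% to 0.383% in embryos and from 0.464% to 0.270% in pupal discs. The whole of Idgf2 went from 1.17% to 1.03% and from 0.866% to 0.664%. The embryo differences of Idgf2 and Idgf3 were -0.42 and -0.38 against embryo replicates 4 to 6, with no overlap.

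All 3 genes rose from the gypsy2 viewpoint. Idgf1 held 0.590%, 0.687% and 0.642% per kb in WT embryos against 0.892%, 0.883% and 0.934% in gypsy2, and in pupal discs 0.578%, 0.582% and 0.493% against 0.996%, 0.952% and 1.09%. Its log2 differences were 0.50, 0.60 and 0.88 in embryos, larval discs and pupal discs. Those of Idgf2 were 0.44, 0.56 and 0.49, and those of Idgf3 0.58, 0.33 and 0.41. No gypsy2 library overlapped with WT replicates 1 to 3 of its stage for any of the 3 genes, and against embryo replicates 4 to 6, where the 3 differences were 0.44, 0.12 and 0.36, only Idgf2 overlapped. Over 3 stages the mean log2 differences were 0.66 for Idgf1, 0.49 for Idgf2 and 0.44 for Idgf3, each with p = 0.00025 (exact permutation within stages, unadjusted). With all 2L counts as the denominator they shrank to 0.21, 0.05 and -0.01.

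**Figure D4:**
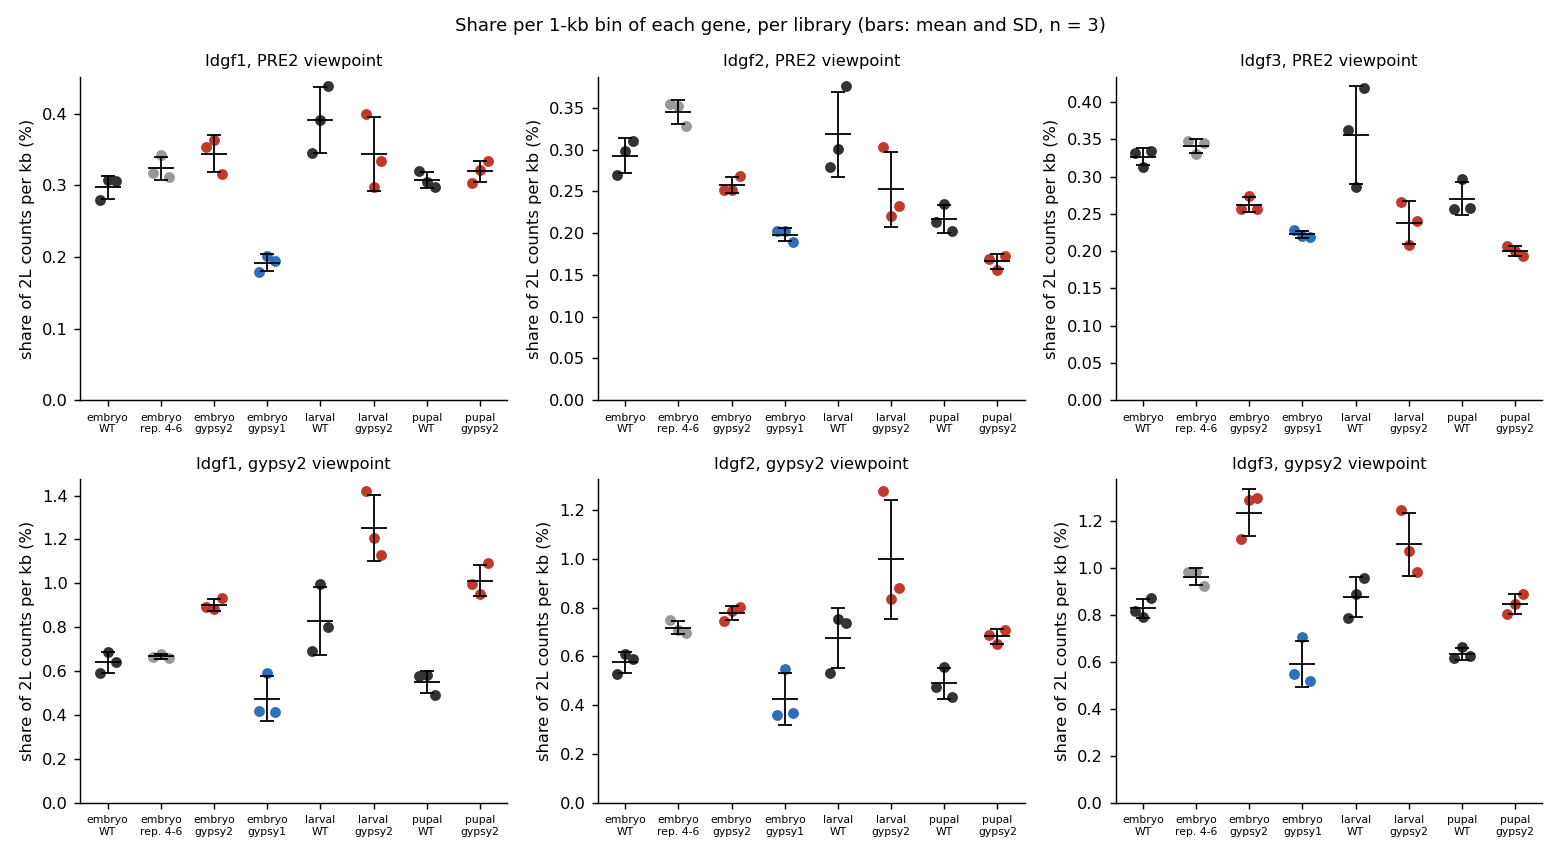
Share of 2L counts per 1-kb bin (y axis, %) of Idgf1, Idgf2 and Idgf3 (columns) from both viewpoints (rows), for every library by stage and genotype (x axis). Points are libraries and bars the mean and SD of 3. From PRE2 the gypsy2 libraries of Idgf3 sit below WT at every stage, at 0.194% to 0.207% against 0.257% to 0.296% in pupal discs, whereas those of Idgf1 overlap with WT in larval and pupal discs.

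In WT the genes were compared by their share per kb. From PRE2 Idgf1, Idgf2 and Idgf3 held means of 0.297%, 0.293% and 0.327% per kb in embryos, 0.392%, 0.318% and 0.356% in larval discs and 0.308%, 0.216% and 0.270% in pupal discs. From the gypsy2 viewpoint, which lies closer, the means were 0.640%, 0.576% and 0.828% in embryos, 0.830%, 0.674% and 0.876% in larval discs and 0.551%, 0.490% and 0.635% in pupal discs. Idgf2, the middle gene, had the lowest mean in all 6 combinations, although its WT libraries lay apart from those of Idgf1 only in pupal discs from PRE2. Within single WT libraries Idgf2 was below Idgf1 except in embryo replicate 3 from PRE2, with 0.311% against 0.305%. In embryo replicates 4 to 6 this order did not hold, with means of 0.324%, 0.345% and 0.341% for Idgf1, Idgf2 and Idgf3 from PRE2 and 0.667%, 0.718% and 0.963% at the gypsy2 viewpoint. Idgf3, the nearest to the viewpoint, was the highest in all 3 stages from the gypsy2 viewpoint, but from PRE2 it was the highest only in embryos.

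Single bins showed where inside the cluster the changes lay. From PRE2, 2 bins fell and 1 rose among the 11 in gypsy2 embryos, where 10.9% of the 887 bins tested within 500 kb were called lower and 11.5% higher (edgeR). The bin 2L:16455001-16456000, with the last bases of Idgf3, fell from 0.222% ± 0.0267 to 0.117% ± 0.0160 (SD, n = 3), a log2 fold change of -0.88 (SE 0.145, edgeR adjusted p = 0.00104). The Idgf3 promoter bin 2L:16450001-16451000 fell from 0.609% ± 0.0442 to 0.383% ± 0.00111 (SD, n = 3), a log2 fold change of -0.63 (SE 0.115, edgeR adjusted p = 0.00188). The Idgf2 promoter bin 2L:16447001-16448000 rose from 0.192% ± 0.0186 to 0.255% ± 0.0146 (SD, n = 3), a log2 fold change of +0.45 (SE 0.137, edgeR adjusted p = 0.0351). This rise was lost without WT replicate 1 or 2 or gypsy2 replicate 5 or 6, and 4 bins were called lower without WT replicate 2. The rise was also not called against embryo replicates 4 to 6, where the log2 fold change was -0.14, whereas both falls were (-1.02 and -0.58) and 6.56% of bins were called lower.

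In pupal discs the same 2 bins fell from PRE2 and no other bin of the cluster was called, where 3.38% of 887 bins were called lower. Bin 2L:16455001-16456000 went from 0.266% ± 0.0289 to 0.130% ± 0.0142 and bin 2L:16450001-16451000 from 0.464% ± 0.0842 to 0.270% ± 0.0116 (SD, n = 3). Their log2 fold changes were -0.98 and -0.73 (edgeR adjusted p = 0.00825 and 0.0236), and 1 of the 2 calls was lost without any 1 of the 3 gypsy2 replicates. In larval discs they had -0.77 and -0.63, but edgeR called 0 of the 11 bins, with a lowest adjusted p of 0.0554, while 6 had an unadjusted p under 0.05 and DESeq2 called 6 lower. Without larval WT replicate 2, 3 bins were called lower. There 5.18% of 850 bins were called in either direction. The median log2 fold change of the 11 bins was -0.13, -0.58 and -0.27 in embryos, larval discs and pupal discs, against 0.07, 0.09 and -0.01 over all bins tested.

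All 11 bins had, from the gypsy2 viewpoint, a positive log2 fold change in gypsy2 at all 3 stages, although with library totals in place of TMM factors 4 of them were called lower in embryos. The edgeR test called 6 of 11 higher in embryos (12% of 888 bins were called higher), 1 of 11 in larval discs (0.575% of 869) and 6 of 11 in pupal discs (3.04% of 888). The strongest were the Idgf2 promoter bin in embryos, with +1.03 (SE 0.174), the bin 2L:16448001-16449000 in larval discs, with +1.06 (SE 0.211), and the first Idgf1 bin, 2L:16445001-16446000, in pupal discs, with +0.99 (SE 0.115). The larval call depended on single libraries, as 0 bins were called without any 1 of larval gypsy2 replicates 1, 2 or 3 or WT replicates 1 or 3, and 3 without WT replicate 2. The pupal count also did, falling to 3, 2 and 1 without pupal gypsy2 replicate 1, 2 and 3 and to 3 without WT replicate 1. The median log2 fold change was 0.66, 0.42 and 0.50, against 0.09, 0.00 and -0.07 over all bins. The 2 bins that fell from PRE2 had the smallest values here in embryos and pupal discs. Their log2 fold changes were +0.20 and +0.12 in embryos, +0.33 and +0.41 in larval discs and +0.10 and +0.39 in pupal discs, and none of these 6 values was called. Against embryo replicates 4 to 6, 3 bins were called higher, where 7.54% of bins were, and 2 of the 11 had a negative log2 fold change.

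**Figure D5:**
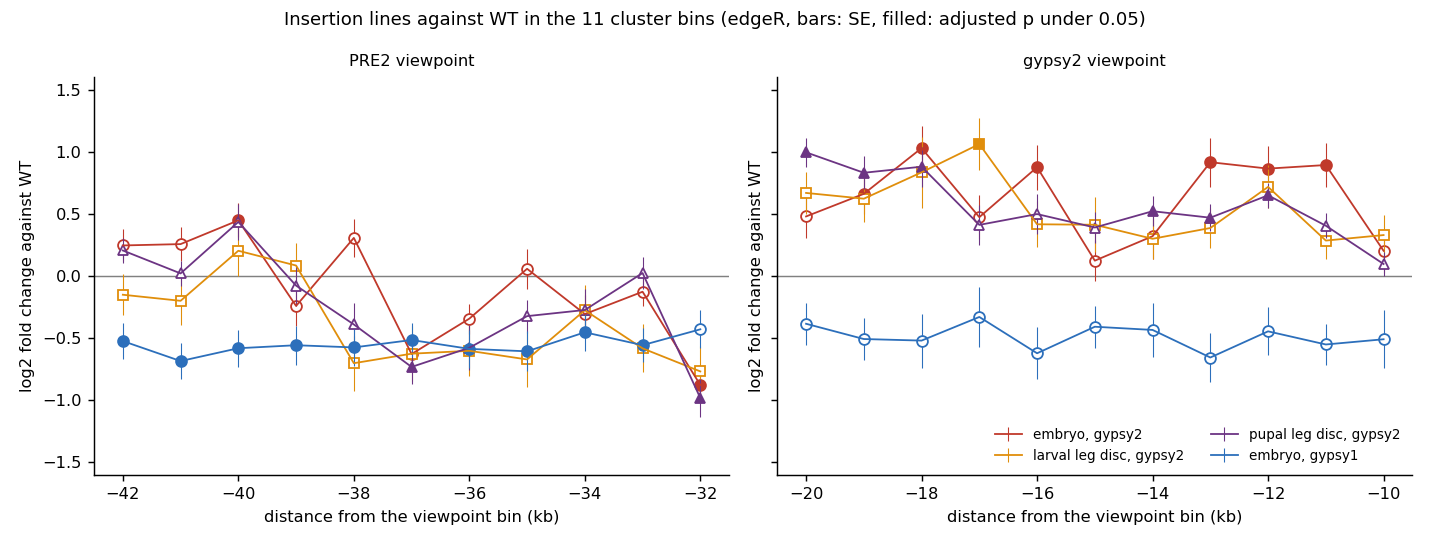
Log2 fold change against WT (y axis, edgeR, bars are SE) of the 11 cluster bins by distance from the viewpoint bin (x axis, kb), for gypsy2 at 3 stages and gypsy1 in embryos. Filled marks have an adjusted p under 0.05 over all bins tested. From PRE2 the bin at -32 kb has -0.88, -0.77 and -0.98 in gypsy2 embryos, larval and pupal discs, from the gypsy2 viewpoint every gypsy2 point is above 0, and every gypsy1 point lies below 0.

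In gypsy1 embryos the cluster fell from both viewpoints. From PRE2 its share was 2.31%, 2.31% and 2.24% in gypsy1 against 3.30%, 3.37% and 3.53% in WT, a fold of 0.673. From the gypsy2 viewpoint it was 5.03%, 6.90% and 4.90% against 7.38%, 7.78% and 8.01%, a fold of 0.718. No gypsy1 library overlapped with WT, where 13.6% of PRE2 windows and 5.68% of gypsy2-viewpoint windows separated in this direction, and each exact permutation test gave its smallest p of 0.1. Against embryo replicates 4 to 6 the log2 differences were -0.71 and -0.70, again with no overlap. The share of windows that separated in this direction against that control was not counted. There edgeR called 50% of windows from PRE2 and 45.5% from the gypsy2 viewpoint in either direction. The same WT libraries serve as control for gypsy1 and gypsy2, and gypsy1 and WT were alike in depth, with 944952 to 1466765 counts and 800269 to 1461167 counts.

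The fall in gypsy1 was nearly even over the genes. From PRE2 the log2 differences of Idgf1, Idgf2 and Idgf3 were -0.63, -0.56 and -0.55, and from the gypsy2 viewpoint -0.45, -0.46 and -0.50. The libraries did not overlap with WT for any gene from PRE2, but did for Idgf1 and Idgf2 from the gypsy2 viewpoint, where the gypsy1 library numbered 3 was the highest at 0.592% and 0.549% per kb. The differences against embryo replicates 4 to 6 were -0.75, -0.80 and -0.62 from PRE2 and -0.51, -0.78 and -0.72 at the gypsy2 viewpoint, and no gene overlapped. How often other regions separate from that control was not counted. In edgeR the cluster window had -0.60 from PRE2 (SE 0.102, adjusted p = 0.00066), where 9.09% of windows were called, and -0.53 from the gypsy2 viewpoint (SE 0.151, adjusted p = 0.0163), where 4.55% were called. It had the 2nd lowest fold change of the 88 windows at either viewpoint. It had -0.81 and -0.82 against embryo replicates 4 to 6 and was called, where 50% and 45.5% of windows were called. With the column number as a block the values were -0.59 and -0.53 and stayed called, while the windows called went from 8 to 21 and from 4 to 13. The call from the gypsy2 viewpoint was lost without embryo WT replicate 1 or 2 or gypsy1 library 1 or 4 (-0.61, -0.58, -0.48 and -0.45).

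Of the 11 bins, 10 were called lower from PRE2 in gypsy1, where 8.04% of 796 bins were, and their log2 fold changes ran only from -0.68 to -0.43. That count fell to 4 without embryo WT replicate 3 and to 5 without gypsy1 library 3. At the gypsy2 viewpoint all 11 were negative, from -0.66 to -0.33, but edgeR called 0 of them, with a lowest adjusted p of 0.319, while 7 had an unadjusted p under 0.05 and DESeq2 called 0. There 1.46% of 822 bins were called in either direction, and without gypsy1 library 3 edgeR called 1 of the 11. With embryo replicates 4 to 6 as control, 10 of the 11 were called lower from PRE2, where 16.1% of bins were, and 7 at the gypsy2 viewpoint, where 5.1% were. The windows beyond the cluster were also negative from PRE2, at -0.20 to -0.64 against -0.60 in the cluster window. The cluster's share relative to the 11 bins beyond it changed by -0.07 from PRE2 and -0.13 from the gypsy2 viewpoint, with p = 0.5 and 0.4 (exact permutation). This depended on the control, since against embryo replicates 4 to 6 those ratios changed by -0.76 and -0.60, each at the smallest p of 0.1 (exact permutation), and the windows beyond the cluster ran from -0.59 to 0.12. Relative to the bins next to it on the viewpoint's side the cluster changed by -0.48 from PRE2 and 0.05 from the gypsy2 viewpoint (p = 0.1 and 0.8, exact permutation), and against embryo replicates 4 to 6 by -0.68 and 0.22. The ratio of cluster to mirror changed by -0.67 from PRE2, with 0.70, 0.56 and 0.45 in gypsy1, and by -0.64 from the gypsy2 viewpoint, with -0.58, 0.04 and -0.68. With embryo replicates 4 to 6 as control these changes were -0.66 and -0.62.

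Between stages of WT, the pupal leg disc had the lowest cluster share from both viewpoints. It was 3.40% ± 0.117, 3.83% ± 0.561 and 2.83% ± 0.175 in embryos, larval discs and pupal discs from PRE2, and 7.72% ± 0.318, 8.74% ± 1.13 and 6.24% ± 0.443 when seen from the gypsy2 viewpoint (SD, n = 3). Pupal libraries lay below all larval and all embryo libraries at both viewpoints. How many other windows separate the stages in this way was not counted, so the separation cannot be called particular to the cluster. The log2 differences of pupal against larval discs were -0.43 and -0.48 and of pupal discs against embryos -0.26 and -0.31, each at the smallest p of 0.1 (exact permutation, adjusted p = 0.15 over 3 pairs of stages and 2 viewpoints). Larval discs and embryos overlapped, with +0.16 (p = 0.2) and +0.17 (p = 0.3, both exact permutation), and the latter turned to -0.05 with embryo replicates 4 to 6. The stages differ in depth and tissue, and these cannot be told apart from age.

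Other genes within 500 kb were ranked by how their log2 share followed that of the cluster over the 24 libraries of a viewpoint, as a description. From PRE2 the highest Pearson's r belonged to CG4455 (0.74), CG42266 (0.67), chif and Hyls1, which share coordinates (0.66), and CG31805 (0.63), against a median of 0.12 over 153 genes. The first 4 of these lie on the cluster's side of the viewpoint and CG31805 lies 411 kb away on the other side. At the gypsy2 viewpoint they were jhamt (0.69), CG31817 (0.66), CG4440 (0.55), Ca-Ma2d and CaBP1 (0.45 each), against a median of -0.18 over 158 genes, and all 5 lie on the cluster's side. The points share libraries, depth and the groups compared above.

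The remaining Idgf genes lie on other chromosomes or arms and held few counts from either viewpoint. From PRE2 Idgf4 on X held 875 counts, Idgf5 on 2R 1160 and Idgf6 on 2R 706 over all 24 libraries, against 2193481 for the cluster. From the gypsy2 viewpoint they held 1366, 1836 and 2345 against 10440949. Per bin this was 1.30, 1.36 and 0.83 times the mean of their own arm from PRE2 and 1.58, 1.65 and 2.10 times it from the gypsy2 viewpoint, and in some libraries each of the 3 held 0 counts.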

How the data were processed

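4C-seq of 24 libraries from 2 viewpoints was analysed here, and Hi-C and CUT&RUN samples were not used. The authors deposited raw counts per 1-kb bin of dm6 in 6 tables, and per the labels reads were aligned with Bowtie. For its version, the other steps and the restriction enzyme, nothing is stated in the labels. The members and lists were chosen with earlier results of these data known. Shares left out 5 kb around the viewpoint bin and were tested on the log2 scale by exact two-sided permutation (Python 3.11.15, scipy 1.17.1). Counts in 11-kb windows and 1-kb bins within 500 kb, with a mean count of at least 10, were tested with edgeR 4.0.16 (quasi-likelihood, TMM, Benjamini-Hochberg, adjusted p under 0.05), after a test on simulated data, with DESeq2 1.42.0 as an alternative. Coding sequences were aligned with mafft 7.526 and repeats searched with blastn 2.17.0. Genes named were the cluster, its neighbours and the 5 genes per viewpoint that best followed it. Column numbers paired gypsy1 with embryo WT (correlations of deviations: PRE2 0.27, 0.41 and 0.45, gypsy2 viewpoint 0.56, 0.47 and 0.23). Errors are SDs over libraries or SEs of the fit, and the counting errors given in the report leave out the spread between libraries.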

Additional observations from a re-analysis of the deposited data

Results flagged for a closer look

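Embryo gypsy2 and embryo gypsy1 moved opposite ways against the same 3 embryo WT libraries in 4 measures, with every gypsy2 library above and every gypsy1 library below all 3. These differences were not tested, and both share the WT controls. From the gypsy2 viewpoint the cluster share differed by 1.0 on the log2 scale (+0.52 in gypsy2 and -0.48 in gypsy1), the ratio of cluster to mirror by 1.55 (+0.91 and -0.64) and the share of Idgf3 by 1.07 (+0.58 and -0.50). From PRE2 the share of Idgf1 differed by 0.84 (+0.21 and -0.63). The opposite directions depend on the scale and the control. With all 2L counts as the denominator the cluster share from the gypsy2 viewpoint was -0.58 in embryo gypsy2 and -0.41 in gypsy1, and with all counts of the library -0.41 and -0.46, so both then lay below WT. Against embryo replicates 4 to 6, Idgf1 from PRE2 differed by 0.088 in gypsy2, with overlap, and by -0.75 in gypsy1. The gypsy2 and gypsy1 libraries also differ in depth, as given above, and its part in these differences was not tested. Groups of 3 are too small to look for single outlying libraries.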

How the results depend on the processing

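Of 1402 alternative values for 130 results, 1206 were unchanged, 116 moved, 33 reversed, 32 no longer passed the threshold and 15 newly passed it. Unchanged means the same direction and side of the threshold for a test, and a similar number for a count of calls. Exact tests within a stage could not pass the threshold, so for them only the direction could change. Values are log2 differences of gypsy2 against WT unless stated, and the causes were not tested. Chosen after seeing the data were the far and near flank ratios, the settings with larval and pupal libraries only, embryo replicates 4 to 6 against gypsy1, for single genes in embryos, in the mirror comparison or with other denominators, and leaving out libraries in the tests between stages.

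With all 2L counts as denominator, the cluster from the gypsy2 viewpoint gave -0.58 in embryos and 0.054 over 3 stages, Idgf1 -0.49 from PRE2, and Idgf1, Idgf2 and Idgf3 0.21, 0.045 and -0.0092 from the gypsy2 viewpoint. With all counts of the library these were -0.41, 0.13, -0.44, 0.29, 0.12 and 0.065. With 2L counts beyond 200 kb Idgf1 from PRE2 was -0.070. With the median of bins the embryo cluster from PRE2 was 0.041, Idgf2 from PRE2 0.069, and the near flank ratio from the gypsy2 viewpoint 0.14. The WT cluster against its mirror from the gypsy2 viewpoint was then -0.040 in larval discs and -0.034 over 3 stages. It was -0.083 in embryos and -0.11 over 3 stages with the mirror 3 kb nearer, and in pupal discs and over 3 stages 0.065 and 0.40 with it 3 kb farther, 0.033 and 0.17 with bins capped, and 0.38 and 0.53 against the flanks. With larval and pupal libraries only, Idgf1 from PRE2 was -0.069, and the far and near flank ratios from PRE2 were 0.16 and 0.16.

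With embryo replicates 4 to 6 as control, Idgf1 from PRE2 was -0.017, the embryo near flank ratio from the gypsy2 viewpoint 0.043, WT larval discs against embryos from the gypsy2 viewpoint -0.054, and the edgeR cluster window in embryos -0.35 at PRE2 (now called) and 0.23 at the gypsy2 viewpoint (no longer called). The cluster bins called higher in embryos were then 0 at PRE2 and 3 at the gypsy2 viewpoint, and 7 were called lower in gypsy1 from the gypsy2 viewpoint. The change between pupal discs and embryos was 0.10 seen from PRE2 and 0.38 (called) seen from the gypsy2 viewpoint. With library totals without TMM factors, the window was -1.19 and -0.69 in embryos and larval discs at PRE2, and -0.40 and 0.32 at the gypsy2 viewpoint. From PRE2, 0 bins were then called higher and 11 lower in embryos and 6 lower in larval discs, and from the gypsy2 viewpoint 0 higher and 4 lower in embryos and 0 higher in larval discs. The changes of larval and of pupal discs against embryos were 0.50 and 0.83 at PRE2, and 0.72 and 0.90 at the gypsy2 viewpoint. With all of 2L in the fit, the embryo PRE2 window was -0.22 (called), the larval window from the gypsy2 viewpoint 0.58 (not called) and the larval change against embryos there -0.019, and the bins called higher were 0 in both fits. Without the filter on low counts, 0 embryo bins were called higher from PRE2. DESeq2 called the larval PRE2 window (-0.49), 6 larval bins lower from PRE2 and 5 higher from the gypsy2 viewpoint.

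The replicate number as a block was tried although, gypsy1 apart, the numbers did not pair the samples. With this replicate block the pupal PRE2 window (-0.23) and the larval window from the gypsy2 viewpoint (0.55) were no longer called, and 0 larval and 1 pupal bin were called higher from the gypsy2 viewpoint. With the block and larval and pupal libraries only, the far flank ratio was 0.16 at PRE2 and 0.26 at the gypsy2 viewpoint, the near flank ratio from PRE2 0.16, Idgf1 from PRE2 -0.069 and Idgf2 from PRE2 -0.36. With the block and embryo replicates 4 to 6, Idgf1 from PRE2 was -0.017, the embryo windows -0.35 and 0.23, and the bins called higher 0 and 3.

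Leaving out 1 library at a time, the edgeR cluster window from PRE2 ranged over -0.23 to -0.093 in embryos, -0.60 to -0.31 in larval discs, -0.29 to -0.15 in pupal discs and -0.65 to -0.52 in gypsy1. At the gypsy2 viewpoint it ranged over 0.46 to 0.64, 0.35 to 0.64, 0.61 to 0.70 and -0.65 to -0.44. Idgf1 from PRE2 ranged from -0.014 to 0.056, turning without larval gypsy2 replicate 1 or larval WT replicate 1. The larval change against embryos from the gypsy2 viewpoint ranged from -0.13 to 0.15 and the pupal change against larval discs from -0.014 to 0.26. Among the 11 bins from PRE2, 0 to 1 were called higher and 2 to 4 lower in embryos, 0 to 3 lower in larval discs, 1 to 2 lower in pupal discs and 4 to 10 lower in gypsy1. At the gypsy2 viewpoint 0 to 3 were called higher in larval discs, 1 to 8 higher in pupal discs and 0 to 1 lower in gypsy1.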
